A study of Mus musculus with 12 samples.

Results

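Primary mouse chondrocytes kept for 24 hrs with dexamethasone (DEX), a synthetic glucocorticoid, were compared with chondrocytes kept for 24 hrs with the vehicle, and the late response was read across all genes of the array. The comparison holds 6 of the 12 arrays of the series, 3 with DEX and 3 with vehicle. They were chosen by their sample titles, and the DEX and vehicle arrays with the same replicate number (1, 2 or 4), which were also hybridized on the same day, were taken as a pair. The cells came from the tibiae, femurs and humeri of mouse embryos at E15.5 and grew as monolayers in medium with fetal bovine serum. The DEX cultures received DEX at 100 nM and the vehicle cultures DMSO, and both received ascorbic acid and beta-glycerophosphate. The other 6 arrays of the series hold the same treatments at 6 hrs. The replicates are described as 3 independent experiments, each on cells of several whole bones, so every value is an average over resting, proliferating and hypertrophic cartilage cells and over any perichondrial, muscle or blood cells that were carried along. In such bulk RNA, fewer cells of a type and less RNA per cell cannot be told apart.

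Glucocorticoids enter the cell and bind the glucocorticoid receptor, a transcription factor encoded by Nr3c1. The bound receptor moves to the nucleus, where it raises transcription of some genes by binding DNA at paired elements and holds back others, many of them targets of NF-kB and AP-1 that encode inflammatory mediators. In the growth plate, the cartilage that lengthens long bones, glucocorticoids are known to slow growth when given at high doses.

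The chondrocyte identity of the cultures was seen in both groups. All 14 listed chondrocyte markers passed the intensity filter, among them the cartilage collagen Col2a1, the proteoglycan Acan and the transcription factor Sox9. Of the listed markers of macrophages, skeletal muscle, endothelium and osteoclasts only a part passed it. Whether these cells were present was not tested. Of 22 macrophage markers 11 reached a mean intensity of 50 in either group. Lyz2, Laptm5 and Adgre1 were among them, with vehicle means of 324.3, 165.5 and 124.2. The pan-leukocyte gene Ptprc and the complement genes C1qa, C1qb and C1qc did not reach 50. Of 24 skeletal muscle markers 15 reached it, of 14 endothelial markers 4 did, and of 10 osteoclast markers 4 did. The endothelial markers Eng and Erg were above it, with vehicle means of 511.4 and 120.6, and Pecam1 and Cdh5 were not. Smooth muscle and fibroblast genes were in part as bright as chondrocyte markers. The vehicle mean was 3577 for Acta2 and 4266 for Col1a1, against 3365 for Acan and 6751 for Col2a1. Of 18 tendon and perichondrial fibroblast markers 17 passed the intensity filter. No marker of macrophages, skeletal muscle, endothelium or osteoclasts passed the test. The median intensity of the 6 arrays lay between 32.1 and 39.1.

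DEX changed 489 of 20281 tested probe sets at 24 hrs, which is 2.41%. A probe set, the group of probes for 1 transcript, was tested where its mean intensity reached 50 with DEX or with vehicle, and it was called changed where its adjusted p was under 0.05. There were 318 rises and 171 falls. All 489 moved 1 way in all 3 pairs, and in 423 the 3 DEX arrays did not overlap the 3 vehicle arrays. A paired test on these same arrays selects for both, so neither count is separate support. Over all tested genes the groups did not overlap in 19.9%. The rises were also the larger changes. A change over 2-fold was seen in 158 probe sets that rose and 61 that fell, and over 4-fold in 36 and 7. The median log2 fold change was 0.99 over the rises, -0.90 over the falls and -0.03 over all tested probe sets.

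**Figure D1:**
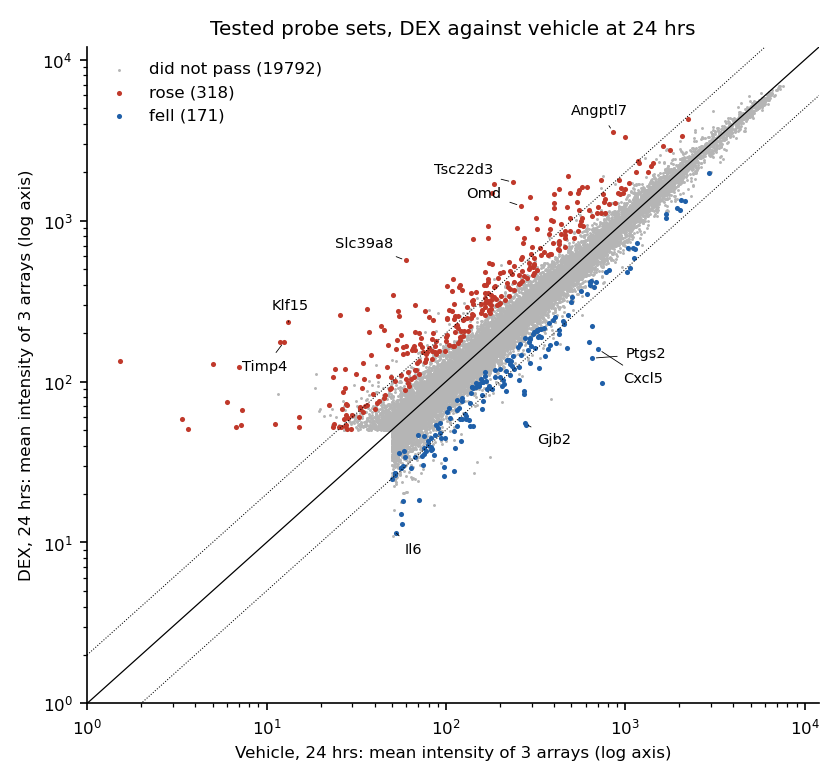
Mean intensity of the 3 DEX arrays against that of the 3 vehicle arrays at 24 hrs, both on log axes, for the 20281 tested probe sets. Red points rose (318) and blue points fell (171), the solid line marks equal intensity and the dotted lines a 2-fold change, and the empty corner at the lower left is the filter at 50. Most of the points farthest from the solid line are red and lie above it.

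Counted by gene, each represented by its tested probe set of highest mean intensity over the 6 arrays, 299 of 10897 genes changed (2.74%). Of these 195 rose (1.79% of the tested genes) and 104 fell (0.954%). The DEX and vehicle arrays did not overlap in 258 of the 299 genes, against 2170 of all 10897 genes (19.9%). The calls were sensitive to the number of pairs. Without pair 1, without pair 2 and without pair 4 there were 64, 76 and 74 of the 299 genes that still passed, and 39 genes that rose and 13 that fell passed whichever of these pairs was left out. Without the replicate pairing in the fit 63 probe sets passed when all 12 arrays were used and 173 when only the 24 hrs arrays were used. Leaving out either array of a pair removes the pair from a paired fit, so each statement about a pair holds for both of its arrays.

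The largest rises joined transcription factors, transporters, secreted proteins and stress proteins. Intensities of 3 arrays are given in the order of replicates 1, 2 and 4, log2 fold changes as the mean of 3 pair differences ± SE from the fit, and adjusted p with the highest value reached without a pair wherever leaving out that pair ended the call. Klf15, a Krüppel-like transcription factor that drives amino acid breakdown in muscle and liver, had the largest rise of all named genes by their brightest probe sets. Dimmer probe sets of Zbtb16 and Hif3a, given below, rose more. The intensity of Klf15 was 169.7, 276 and 257 with DEX and 6.79, 8.23 and 24.7 with vehicle. Its log2 fold change was 4.36 ± 0.30, adjusted p = 0.00105. All DEX arrays were above 100 and all vehicle arrays were under the filter. Slc39a8, a transporter that brings zinc and manganese into the cell, measured 442, 681 and 574 with DEX and 57.2, 82.1 and 39.9 with vehicle, a log2 fold change of 3.28 ± 0.18, adjusted p = 0.000486. The mitochondrial carrier Slc25a48 had intensities of 122, 174 and 74.1 with DEX and 4.93, 11.8 and 4.46 with vehicle, with a log2 fold change of 4.19 ± 0.82, adjusted p = 0.0479, up to 0.194 without pair 1, 2 or 4 or 6 hrs pair 1. In these 3 genes every DEX array was far above every vehicle array.

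Secreted proteins were next. Timp4, an inhibitor of matrix metalloproteinases, had intensities of 162, 125 and 243 with DEX and 10.5, 18.3 and 8.72 with vehicle and a log2 fold change of 3.84 ± 0.35, adjusted p = 0.00315. A dimmer Timp4 probe set gave 1.64 ± 0.34 with an adjusted p of 0.0564. Itgbl1, a secreted protein with repeats like those of beta integrins, measured 328, 294 and 416 with DEX and 39.5, 42.6 and 69.6 with vehicle, with a log2 fold change of 2.81 ± 0.19, adjusted p = 0.00105. The groups were apart in both genes, and the vehicle levels of Timp4 were under the filter. Endothelin-1 (Edn1), a small peptide that constricts vessels and also acts on cartilage and bone cells, measured 78.8, 23.5 and 58.6 with DEX and 8.67, 5.74 and 7.33 with vehicle, a log2 fold change of 2.74 ± 0.23, adjusted p = 0.00299. Replicate 2 was lowest for Edn1 in both groups. Osteomodulin (Omd), a keratan sulfate proteoglycan of mineralized tissue, measured 1185, 1361 and 1157 with DEX and 232, 279 and 272 with vehicle, with a log2 fold change of 2.24 ± 0.12, adjusted p = 0.000486, and its 3 values were close together within each group. Angptl7, a secreted angiopoietin-like protein, measured 3729.5, 3545 and 3446 with DEX and 789.6, 1109 and 652 with vehicle, a log2 fold change of 2.11 ± 0.18, adjusted p = 0.00312.

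Among stress proteins, the small heat shock protein Cryab measured 895, 804 and 1073 with DEX and 169, 145 and 201 with vehicle, a log2 fold change of 2.43 ± 0.13, adjusted p = 0.000486, and its second probe set gave 2.40 ± 0.14. Hspb7, a related chaperone, rose (log2 fold change 2.34 ± 0.36, adjusted p = 0.0238, up to 0.136 without pair 1, 2 or 4), and Hspb1 (1.35 ± 0.18, adjusted p = 0.0141, up to 0.0943 without pair 1 or 4). These were the 3 changed genes of 17 tested small heat shock proteins and chaperones, and the other 14 did not pass. Further large rises, with their log2 fold changes, were Ctxn3 (3.32 ± 0.36, adjusted p = 0.00628), the glutamate transporter Slc1a6 (2.28 ± 0.20, adjusted p = 0.00312), the fatty acid binding protein Fabp4 (2.48 ± 0.40, adjusted p = 0.0277, up to 0.112 without pair 1 or 4 or 6 hrs pair 2), the secreted phospholipase Pla2g5 (2.35 ± 0.29, adjusted p = 0.0101, up to 0.0658 without pair 1), Tent5b (2.17 ± 0.38, adjusted p = 0.0335, up to 0.175 without pair 1, 2 or 4), the endoplasmic reticulum oxidoreductase Foxred2 (2.16 ± 0.30, adjusted p = 0.0157, up to 0.102 without pair 1 or 2) and the microtubule-associated Mtus2 (2.13 ± 0.28, adjusted p = 0.0127, up to 0.0925 without pair 2 or 4). Fabp4 is also an adipocyte marker. Of 6 tested adipocyte markers it was the only 1 to pass, and Adipoq, Cidec and Lep had mean intensities under 50.

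Where a vehicle level lies under the filter, the size of the change depends on how near to background a probe set is read. With 16 added to every intensity before log2, the log2 fold change became 3.12 for Klf15, 2.54 for Slc25a48, 2.72 for Timp4, 1.59 for Ctxn3, 1.49 for Edn1, 1.68 for Pla2g5, 1.31 for Slc1a6 and 1.90 for Sult1a1, and among the falls -1.29 for Il6 and -1.20 for Rtp4. None changed direction. The mean vehicle intensity was under 50 in 34 of the 195 genes that rose, and the mean DEX intensity in 22 of the 104 that fell.

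**Figure D2:**
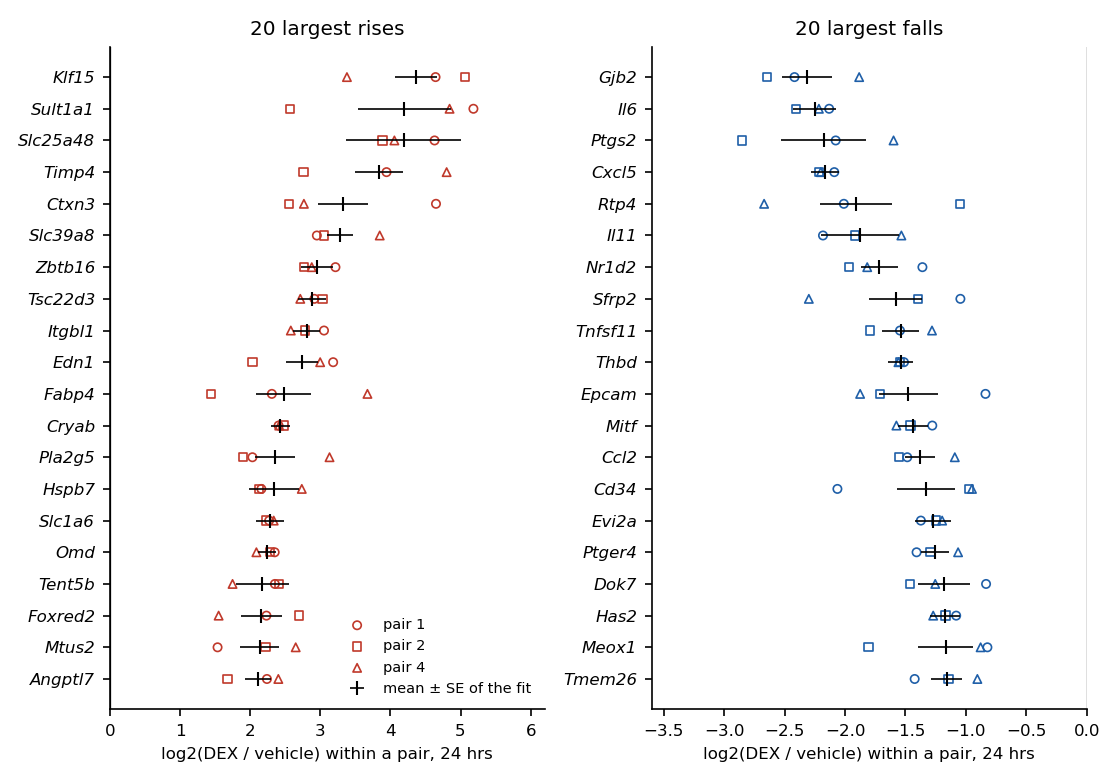
Difference of log2 intensity between the DEX and the vehicle array of each pair at 24 hrs for the 20 largest rises (left) and the 20 largest falls (right) among changed genes. Open symbols are the 3 pairs, and the black mark with its bar is the mean of the pairs ± SE of the fit. All pair differences of a gene lie on 1 side of 0, as the choice of these genes required. The pairs of Thbd, Cryab, Slc1a6 and Cxcl5 are closest together.

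Established glucocorticoid targets had the largest share of changed genes among lists with at least 10 tested genes. Of 30 tested genes 16 rose, 0 fell and 14 did not pass, 26 of the 30 had a log2 fold change above 0, and the median was 0.85, against -0.03 over all tested genes. The list was drawn up with earlier results of these data known and with textbook targets in view. Tsc22d3 (GILZ), a leucine zipper protein that binds NF-kB and AP-1, measured 1581, 1784 and 1839 with DEX and 209, 218 and 280.1 with vehicle, a log2 fold change of 2.89 ± 0.20, adjusted p = 0.00112. Its other probe sets gave 3.17 ± 0.27 and 0.39 ± 0.13. Fkbp5, a co-chaperone that lowers the receptor's affinity for its hormone, measured 1618, 1485 and 1591 with DEX and 535, 258 and 484 with vehicle, a log2 fold change of 1.95 ± 0.21, adjusted p = 0.00628. The groups stood apart in both, and the DEX arrays lay close together. Zbtb16, a zinc finger transcription factor, measured 271, 246 and 325 with DEX and 29.1, 36.2 and 44.2 with vehicle, a log2 fold change of 2.95 ± 0.22, adjusted p = 0.00192, and the other probe sets gave 6.51 ± 0.21 and 0.07 ± 0.18. Klf9, another Krüppel-like factor, rose (log2 fold change 1.53 ± 0.14, adjusted p = 0.00369), with its 4 probe sets between 1.49 and 1.75. The hypoxia-inducible factor Hif3a rose (log2 fold change 1.75 ± 0.20, adjusted p = 0.00684), with other probe sets at 5.28, 3.67, 2.39 and -0.11.

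Metabolic and protective members of that list moved alongside. The zinc-binding metallothionein Mt1 measured 1641, 2109.8 and 1906 with DEX and 419.9, 583 and 438 with vehicle, a log2 fold change of 1.98 ± 0.17, adjusted p = 0.00299, and Mt2 rose (log2 fold change 1.72 ± 0.28, adjusted p = 0.0284, up to 0.157 without pair 1, 2 or 4). The glutamine synthetase Glul rose (log2 fold change 1.56 ± 0.19, adjusted p = 0.00894, up to 0.0631 without pair 1, 2 or 4), and Pdk4, a kinase that closes the entry of pyruvate into the citrate cycle (1.74 ± 0.25, adjusted p = 0.0176, up to 0.101 without pair 1 or 4). The clock gene Per1 rose (log2 fold change 1.10 ± 0.12, adjusted p = 0.00718, up to 0.0631 without pair 1 or 4), the CDK inhibitor Cdkn1c (0.95 ± 0.11, adjusted p = 0.00689, up to 0.0661 without pair 1 or 4), the iron-binding lipocalin Lcn2 (1.57 ± 0.29, adjusted p = 0.0399, up to 0.203 without pair 1 or 2 or 6 hrs pair 1, 2 or 4), the cross-linking enzyme Tgm2 (1.28 ± 0.24, adjusted p = 0.0387, up to 0.176 without pair 1 or 4 or 6 hrs pair 1, 2 or 4), and Dusp1, the phosphatase that switches off MAP kinases (0.68 ± 0.11, adjusted p = 0.0273, up to 0.148 without pair 1, 2 or 4). Lcn2 was chosen after its values were seen. Of these genes Dusp1 had the smallest change, with intensities of 1947, 2805 and 2112 with DEX and 1302, 1631 and 1318 with vehicle, and its groups did not overlap.

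**Figure D3:**
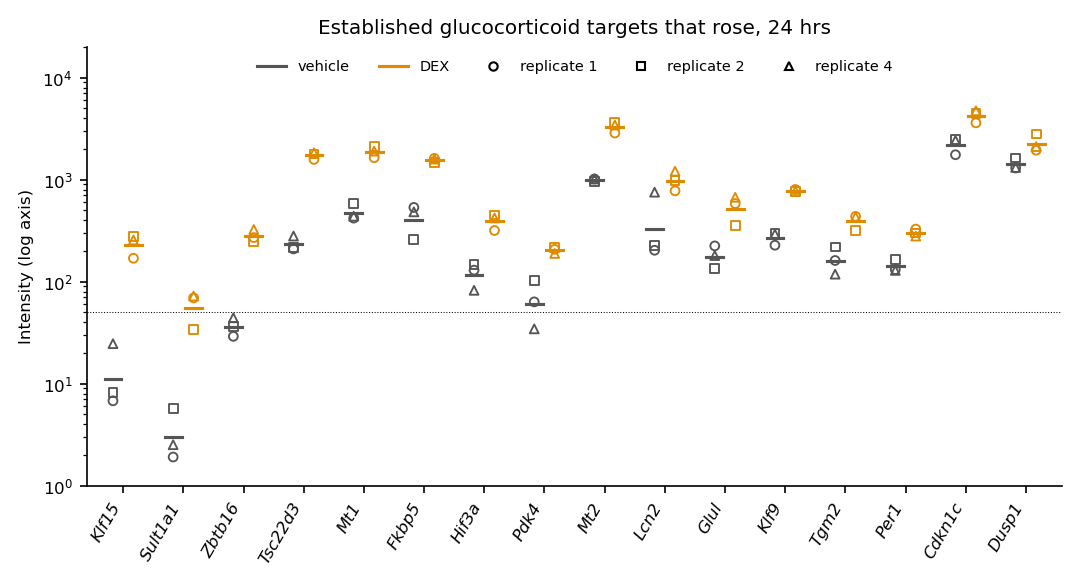
Intensity on a log axis for each array at 24 hrs in the 16 established glucocorticoid targets that rose, vehicle in grey and DEX in orange. Symbols mark replicates 1, 2 and 4, the short lines the geometric mean of 3 arrays, and the dotted line the filter at 50. DEX arrays lie above vehicle arrays in all 16 genes, and the vehicle arrays of Klf15, Sult1a1 and Zbtb16 lie under the dotted line.

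Sult1a1, a sulfotransferase for phenols and steroids and a known glucocorticoid target in liver, measured 69.3, 33.9 and 72.3 with DEX and 1.91, 5.70 and 2.52 with vehicle, a log2 fold change of 4.20 ± 0.66, adjusted p = 0.0265, up to 0.146 without pair 1 or 4. Its promoter window is shown because, of the 16 of the 20 largest rises that had a window in RefSeq, it alone held a close match to the paired elements of the receptor. The window runs from 250 bases before to 50 after the start of the transcript on the reverse strand, at chr7:126676369-126676668 in GRCm38.p6. The capitals mark the match to AGAACA and TGTTCT set 3 bases apart, with 2 mismatches in 12 positions, whose first base lies 34 bases before the start.

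Sult1a1: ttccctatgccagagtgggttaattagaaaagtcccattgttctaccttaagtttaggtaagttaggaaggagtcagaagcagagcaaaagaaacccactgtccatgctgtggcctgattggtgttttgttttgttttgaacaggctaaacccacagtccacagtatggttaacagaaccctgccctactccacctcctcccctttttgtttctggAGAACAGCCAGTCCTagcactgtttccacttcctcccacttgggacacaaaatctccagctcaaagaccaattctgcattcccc

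The paired elements read the same on both strands, and the search allowed at most 2 mismatches. Such a match was found in 2.10% of the 27025 genes with a promoter window, in 111 of the 8860 tested genes with a window (1.25%), in 4 of the 153 genes that rose with a window (2.61%) and in 2 of the 76 that fell (2.63%). The genes that fell with a match included Ptger4, the prostaglandin receptor described with the prostaglandin pathway. A match describes the letters of the window and does not show binding, and a window of 300 bases leaves distant elements unread.

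Several inflammatory mediators fell. Of 16 tested chemokines 4 fell and 0 rose, 14 had a log2 fold change below 0, and the median was -0.65. Of 12 tested interleukins and related cytokines 3 fell and 1 rose, with a median of -0.41, and of 19 tested cytokine receptors 4 fell and 0 rose, with a median of -0.33. Interleukin-6 (Il6), a cytokine that drives inflammation and is made by stressed chondrocytes, measured 16.2, 5.29 and 12.8 with DEX and 71.0, 28.0 and 59.6 with vehicle, a log2 fold change of -2.25 ± 0.18, adjusted p = 0.00238. Cxcl5, a chemokine that attracts neutrophils, measured 214, 134 and 128 with DEX and 911, 621 and 589 with vehicle, a log2 fold change of -2.17 ± 0.11, adjusted p = 0.000486. Ccl2, which attracts monocytes, measured 113, 55.5 and 136 with DEX and 317, 163 and 289.7 with vehicle, a log2 fold change of -1.38 ± 0.12, adjusted p = 0.00315. In all 3 genes the DEX arrays lay under the vehicle arrays, and for Il6 and Ccl2 replicate 2 was lowest in both groups. The DEX levels of Il6 were under the filter.

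Tnfsf11 (RANKL), the ligand that starts osteoclast formation, measured 56.1, 28.7 and 31.2 with DEX and 164, 99.6 and 75.7 with vehicle, a log2 fold change of -1.54 ± 0.15, adjusted p = 0.00434. Its soluble decoy receptor osteoprotegerin, encoded by Tnfrsf11b, fell as well (-1.09 ± 0.19, adjusted p = 0.034, up to 0.153 without pair 1, 2 or 4 or 6 hrs pair 1), with intensities of 411, 587 and 432 with DEX and 1137, 1181 and 752 with vehicle. In both genes all DEX arrays were below all vehicle arrays. Interleukin-11 (Il11) fell (log2 fold change -1.88 ± 0.32, adjusted p = 0.0323, up to 0.161 without pair 1, 2 or 4), the chemokine Cxcl14 (-0.77 ± 0.11, adjusted p = 0.0181, up to 0.103 without pair 1, 2 or 4), and the membrane-bound chemokine Cx3cl1 (-0.91 ± 0.18, adjusted p = 0.0497, up to 0.199 without pair 1, 2 or 4 or 6 hrs pair 1, 2 or 4). The interleukin-1 receptor Il1r1 fell (log2 fold change -0.90 ± 0.14, adjusted p = 0.0244, up to 0.131 without pair 1, 2 or 4), Il13ra1, a receptor chain for interleukins 4 and 13 (-0.64 ± 0.13, adjusted p = 0.0497, up to 0.207 without pair 1, 2 or 4 or 6 hrs pair 1, 2 or 4), and the TNF receptor Tnfrsf1b (-0.63 ± 0.12, adjusted p = 0.0473, up to 0.218 without pair 1, 2 or 4 or 6 hrs pair 1, 2 or 4). A second probe set of Tnfrsf1b gave 0.18 ± 0.29. The 1 member that rose was Il16, a chemoattractant for CD4+ cells (1.48 ± 0.16, adjusted p = 0.00628), and it measured 109, 158 and 104 with DEX and 43.4, 69.1 and 27.6 with vehicle.

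Macrophage markers lay lower with DEX without any passing. Of 11 tested markers 9 had a log2 fold change below 0, with a median of -0.22 and a summed intensity between 925 and 1151 with DEX and between 1159 and 1290 with vehicle. Their part in the fall of the chemokines was not tested. The cell adhesion receptor Vcam1 fell (log2 fold change -0.93 ± 0.16, adjusted p = 0.0325, up to 0.153 without pair 1, 2 or 4 or 6 hrs pair 1), and Nfkbiz, a nuclear cofactor of NF-kB (-0.70 ± 0.11, adjusted p = 0.0271, up to 0.145 without pair 1, 2 or 4 or 6 hrs pair 2). These were the 2 changed genes of 16 tested NF-kB subunits and feedback genes, whose median was 0.01. Of 12 tested interferon response and antigen presentation genes 0 passed, and their median was 0.06. Rtp4, an interferon-inducible gene outside that list, fell (log2 fold change -1.91 ± 0.30, adjusted p = 0.0271, up to 0.122 without pair 1 or 4).

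**Figure D4:**
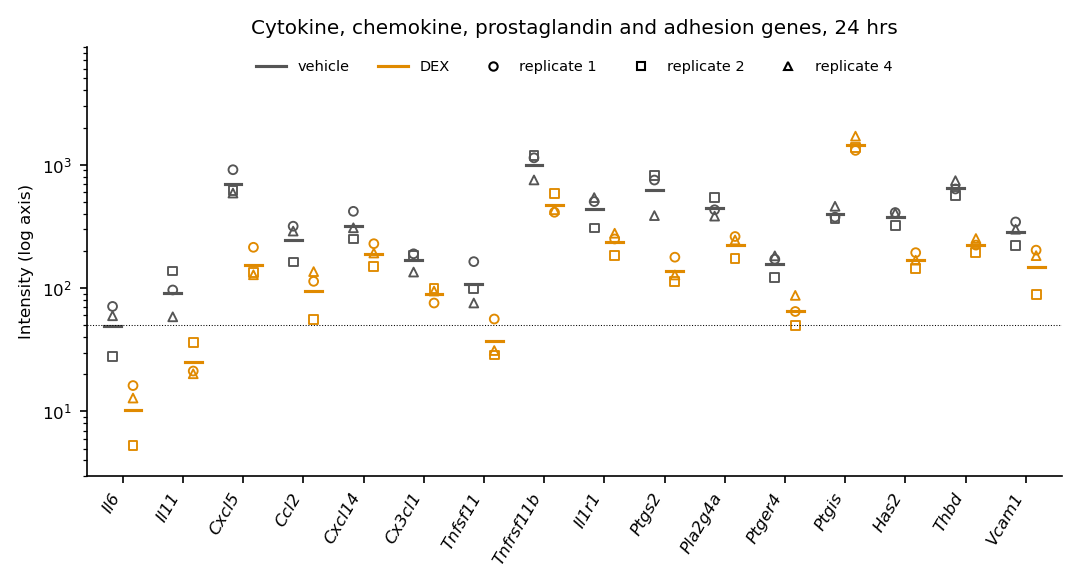
Intensity on a log axis for each array at 24 hrs in 16 changed cytokine, chemokine, prostaglandin, hyaluronan, coagulation and adhesion genes, vehicle in grey and DEX in orange. Symbols mark replicates 1, 2 and 4, the short lines the geometric mean of 3 arrays, and the dotted line the filter at 50. DEX lies below vehicle in every gene drawn except Ptgis, where it lies above.

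Within the prostaglandin pathway the steps did not move together. Of 10 tested genes 3 fell and 1 rose. Pla2g4a, the phospholipase that frees arachidonic acid from membranes, fell (log2 fold change -1.00 ± 0.19, adjusted p = 0.0477, up to 0.119 without pair 1, 2 or 4 or 6 hrs pair 1, 2 or 4). Ptgs2 (COX-2), the inducible cyclooxygenase that turns arachidonic acid into the common prostaglandin precursor, measured 178, 114 and 128 with DEX and 751, 821 and 387 with vehicle, a log2 fold change of -2.18 ± 0.35, adjusted p = 0.0281, up to 0.153 without pair 1, 2 or 4 or 6 hrs pair 2, and its second probe set gave -1.61 ± 0.26. Replicate 4 had the lowest vehicle level, and all DEX arrays were below it. The prostaglandin E receptor Ptger4 measured 64.6, 49.4 and 87.2 with DEX and 171, 121 and 182 with vehicle, a log2 fold change of -1.25 ± 0.11, adjusted p = 0.00315. Ptgis, the prostacyclin synthase, went the other way, with intensities of 1307, 1386 and 1704 with DEX and 376, 364 and 460.3 with vehicle and a log2 fold change of 1.87 ± 0.10, adjusted p = 0.000486. Both of these genes kept their calls whichever pair was left out. Downstream of such receptors, Pde4b, a phosphodiesterase that breaks down cAMP, fell (log2 fold change -0.96 ± 0.10, adjusted p = 0.00563), and the adenylyl cyclase Adcy7 (-0.88 ± 0.12, adjusted p = 0.0168, up to 0.106 without pair 1, 2 or 4), 2 of 20 tested genes of cAMP and G protein signalling, of which 0 rose.

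A few cartilage matrix genes rose. Of 21 tested genes 3 rose, 0 fell and 18 did not pass. The log2 fold change was above 0 in 19 of the 21 and the median was 0.27. Ucma, a secreted protein of upper growth plate chondrocytes, measured 915, 1216 and 976 with DEX and 405, 769.8 and 305 with vehicle, a log2 fold change of 1.17 ± 0.19, adjusted p = 0.0271, up to 0.116 without pair 1 or 4 or 6 hrs pair 2. The collagen-binding leucine-rich protein Chad rose (log2 fold change 0.97 ± 0.11, adjusted p = 0.00716, up to 0.0544 without pair 2 or 4), and the membrane proteoglycan Snorc (0.59 ± 0.12, adjusted p = 0.0498, up to 0.217 without pair 1, 2 or 4 or 6 hrs pair 1, 2 or 4). The principal components of cartilage did not pass. Col2a1 measured 4933, 5892 and 6999.9 with DEX and 5897, 7893 and 6462 with vehicle, a log2 fold change of -0.19 ± 0.15 with an adjusted p of 0.563, and Acan measured 2956, 3788 and 3503 with DEX and 2618, 4119.9 and 3357 with vehicle, a log2 fold change of 0.04 ± 0.11 with an adjusted p of 0.897. Their groups overlapped. The log2 fold change of Sox9, the transcription factor that sets chondrocyte identity, was 0.19 ± 0.19 with an adjusted p of 0.657, and its second probe set gave 0.40 ± 0.15 with an adjusted p of 0.225. Values of Col2a1, Acan and Sox9 had been seen when they were chosen. Of 14 tested chondrocyte transcription factors, Foxa2 alone passed, a factor of hypertrophic differentiation that rose (log2 fold change 0.95 ± 0.16, adjusted p = 0.0286, up to 0.158 without pair 2 or 4 or 6 hrs pair 2).

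Hypertrophic and bone-forming genes passed more often than genes in general, at 30.8% and 27.3% against 2.74% of all tested genes. This was not particular to them. The share was 40.0% in the prostaglandin pathway, 33.3% in interleukins and related cytokines and 25.0% in chemokines. All lists were drawn up with earlier results of these data known, and the difference was not tested. Alpl is in both the hypertrophic and the osteoblast list. Whichever 24 hrs pair was left out, 0 hypertrophic and 2 osteoblast genes passed. Of 13 tested hypertrophic genes 3 rose, 1 fell and 9 did not pass, 10 had a log2 fold change above 0 and the median was 0.63. Of 11 tested osteoblast genes 3 rose, 0 fell and 8 did not pass, 7 had a log2 fold change above 0 and the median was 0.64. Pth1r, the receptor for parathyroid hormone and PTHrP, measured 626, 779 and 783 with DEX and 416, 389.8 and 373 with vehicle, a log2 fold change of 0.89 ± 0.13, adjusted p = 0.0182, up to 0.114 without pair 2 or 4. Alkaline phosphatase (Alpl), which frees phosphate for mineralization, rose (log2 fold change 0.64 ± 0.12, adjusted p = 0.0381, up to 0.193 without pair 1, 2 or 4 or 6 hrs pair 1, 2 or 4), and the pannexin channel Panx3 (0.60 ± 0.11, adjusted p = 0.0359, up to 0.186 without pair 1, 2 or 4 or 6 hrs pair 1, 2 or 4). Ank, which exports pyrophosphate, an inhibitor of mineralization, fell (log2 fold change -0.76 ± 0.13, adjusted p = 0.0304, up to 0.161 without pair 1, 2 or 4 or 6 hrs pair 2). The groups were apart in all 4 genes. Ihh, the hedgehog ligand of prehypertrophic chondrocytes, measured 158, 176 and 158 with DEX and 94.6, 99.0 and 64.8 with vehicle, a log2 fold change of 0.95 ± 0.20 with an adjusted p of 0.058. It passed in the fit of the 24 hrs arrays alone, with an adjusted p of 0.0467. Of the 4 genes above, Pth1r passed in that fit (adjusted p = 0.04997). Alpl, Panx3 and Ank did not, with adjusted p of 0.0856, 0.087 and 0.058. Of all 299 changed genes 166 passed there. Bone sialoprotein (Ibsp) had a log2 fold change of 0.92 ± 0.19 with an adjusted p of 0.0534, and the hypertrophic collagen Col10a1 of 0.41 ± 0.11 with an adjusted p of 0.112, both chosen after their values were seen. The second probe set of Ibsp, which was dimmer, rose, with a log2 fold change of 1.57 ± 0.21 and an adjusted p of 0.0141. Periostin (Postn), a matrix protein of periosteum, measured 1820.0, 603 and 2020.1 with DEX and 655, 257 and 722 with vehicle, a log2 fold change of 1.40 ± 0.12, adjusted p = 0.00312. Its groups overlapped, with replicate 2 lowest in both, while every pair moved up.

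Postn is also a marker of tendon and perichondrial fibroblasts. Of 17 tested markers of these cells 2 rose, Postn and Mfap5 (log2 fold change 0.85 ± 0.16, adjusted p = 0.0469, up to 0.217 without pair 1, 2 or 4 or 6 hrs pair 2 or 4), 8 had a log2 fold change above 0 and the median was -0.01. Their summed intensity ranged from 17100 to 24630 with DEX and from 19040 to 21020 with vehicle. Small leucine-rich proteoglycans, which bind collagen fibrils, counted 3 rises and 0 falls in 12 tested genes, namely Omd, Chad and asporin (Aspn, log2 fold change 0.98 ± 0.17, adjusted p = 0.0326, up to 0.169 without pair 1, 2 or 4 or 6 hrs pair 1).

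Outside cartilage collagens, the basement membrane collagens Col4a1 (1.24 ± 0.14, adjusted p = 0.00628, up to 0.0587 without pair 1 or 4) and Col4a2 (1.06 ± 0.16, adjusted p = 0.0241, up to 0.125 without pair 1, 2 or 4) rose, with log2 fold changes in parentheses, as the 2 changed genes of 21 tested fibrillar and basement membrane collagens. Col4a1 measured 1440.1, 722 and 1778 with DEX and 627, 338 and 657 with vehicle, and its groups did not overlap. Enzymes that process collagen counted 3 rises and 0 falls of 23, with log2 fold changes in parentheses, the lysyl oxidase Loxl3 (0.98 ± 0.11, adjusted p = 0.00748, up to 0.0624 without pair 2 or 4), the procollagen C-proteinase enhancer Pcolce2 (0.74 ± 0.12, adjusted p = 0.0301, up to 0.153 without pair 1, 2 or 4 or 6 hrs pair 1 or 2) and Tgm2. Matrix proteases and their inhibitors moved both ways, with 3 rises and 2 falls of 29. Adamts1, which cuts aggrecan and versican, measured 1463, 1622 and 1765 with DEX and 536, 474 and 715 with vehicle, a log2 fold change of 1.51 ± 0.13, adjusted p = 0.00299. Adam12 rose (log2 fold change 1.21 ± 0.17, adjusted p = 0.0158, up to 0.0992 without pair 1, 2 or 4), and the third gene to rise was Timp4. Tissue plasminogen activator (Plat) fell (log2 fold change -1.03 ± 0.15, adjusted p = 0.0202, up to 0.123 without pair 1 or 2), and the stromelysin Mmp3 (-0.95 ± 0.13, adjusted p = 0.0161, up to 0.0978 without pair 1 or 4). Has2, the main hyaluronan synthase of cartilage, measured 194, 144 and 168 with DEX and 409, 324 and 406 with vehicle and fell (log2 fold change -1.17 ± 0.12, adjusted p = 0.00578). It was the only changed gene of 11 tested hyaluronan genes. Among enzymes of glycosaminoglycan chains, the heparan sulfate sulfotransferase Hs6st1 fell (log2 fold change -0.79 ± 0.11, adjusted p = 0.0141, up to 0.0978 without pair 1, 2 or 4) and its relative Hs6st2 (-0.65 ± 0.13, adjusted p = 0.0469, up to 0.216 without pair 1, 2 or 4 or 6 hrs pair 1, 2 or 4), while Slc35d1, which carries nucleotide sugars for chondroitin sulfate synthesis into the endoplasmic reticulum, rose (log2 fold change 0.77 ± 0.11, adjusted p = 0.0186, up to 0.105 without pair 1, 2 or 4).

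Receptors and linkers of cell adhesion counted 5 rises and 0 falls of 26. The collagen-binding integrin Itga10 of chondrocytes rose (log2 fold change 1.28 ± 0.16, adjusted p = 0.011, up to 0.0916 without pair 1, 2 or 4), with intensities of 423, 467 and 362 with DEX and 150.3, 197 and 169 with vehicle. Lims2, an adaptor at integrin contacts, rose (log2 fold change 1.29 ± 0.19, adjusted p = 0.0184, up to 0.112 without pair 1 or 2), the focal adhesion protein Tns1 (1.11 ± 0.17, adjusted p = 0.0259, up to 0.126 without pair 1, 2 or 4), and the remaining genes were Itgbl1 and Itga8. The integrin subunit Itgb1 measured 2194, 1759 and 2073 with DEX and 2054, 2114 and 2062 with vehicle, a log2 fold change of -0.05 ± 0.12 with an adjusted p of 0.852, and its groups overlapped. Its other probe sets had the other sign, at 0.19 ± 0.13 and 0.16 ± 0.39. The myosin kinase Mylk was the 1 changed gene of 24 tested actin and contractile genes, with a log2 fold change of 1.14 ± 0.18, adjusted p = 0.0244, up to 0.135 without pair 1 or 4. Of 15 tested skeletal muscle markers 14 had a log2 fold change below 0, with a median of -0.42, and 0 passed.

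Vascular and coagulation factors changed beside Edn1. Of 27 tested angiogenesis and vascular genes 4 rose and 1 fell, 8 had a log2 fold change above 0 and the median was -0.20. Edn1 and Angptl7 were among the rises. The lymphatic growth factor Vegfc rose (log2 fold change 1.46 ± 0.19, adjusted p = 0.0139, up to 0.0997 without pair 1 or 2), and Vegfd (0.96 ± 0.18, adjusted p = 0.0413, up to 0.208 without pair 1, 2 or 4 or 6 hrs pair 2). The fall was that of Nrp2, a coreceptor for such factors and for semaphorins (-0.60 ± 0.12, adjusted p = 0.0479, up to 0.212 without pair 1, 2 or 4 or 6 hrs pair 1, 2 or 4), and its other probe sets gave -0.62 ± 0.13 and -0.26 ± 0.12. Outside that list, thrombomodulin (Thbd), an anticoagulant receptor, measured 223, 194 and 252 with DEX and 636, 565 and 742 with vehicle, a log2 fold change of -1.54 ± 0.10, adjusted p = 0.00105, and its 3 pair differences were nearly equal. Gas6, a ligand of the TAM receptor kinases, measured 952, 538 and 1386 with DEX and 446, 256 and 614 with vehicle, a log2 fold change of 1.11 ± 0.11, adjusted p = 0.00434. Every pair moved up although the groups overlapped. Other changed growth factors were the EGF receptor ligands Tgfa, which rose (log2 fold change 1.04 ± 0.18, adjusted p = 0.0326, up to 0.174 without pair 1, 2 or 4 or 6 hrs pair 2), and Hbegf, which fell (log2 fold change -1.07 ± 0.21, adjusted p = 0.0469, up to 0.198 without pair 1, 2 or 4 or 6 hrs pair 1 or 2), and the heparin-binding pleiotrophin (Ptn), which fell (log2 fold change -0.99 ± 0.15, adjusted p = 0.0212, up to 0.122 without pair 1, 2 or 4). Other probe sets of Ptn gave -1.12 ± 0.15 and 0.12 ± 0.21. Those of Tgfa gave 0.57 ± 0.21 and 0.14 ± 0.13 and did not pass. Nrp2, Mmp3 and Ptn were chosen after their values were seen.

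Several signalling genes stood among the largest falls. Gjb2, a gap junction connexin, had the largest fall of all named genes, with intensities of 60.4, 45.0 and 59.5 with DEX and 323, 282 and 219.5 with vehicle and a log2 fold change of -2.32 ± 0.20, adjusted p = 0.00312. Nr1d2 (REV-ERB beta), a nuclear receptor of the clock, measured 102, 68.8 and 81.7 with DEX and 261, 269 and 288 with vehicle, a log2 fold change of -1.72 ± 0.15, adjusted p = 0.00312. Its groups were far apart, as were those of Gjb2. Of 17 tested clock genes 1 rose, Per1, and 2 fell, Nr1d2 and the clock repressor Ciart (log2 fold change -1.10 ± 0.21, adjusted p = 0.0475, up to 0.212 without pair 1, 2 or 4 or 6 hrs pair 1 or 2). Mitf, a transcription factor of osteoclasts and melanocytes, measured 115, 148 and 101 with DEX and 279.6, 407 and 301 with vehicle, a log2 fold change of -1.44 ± 0.12, adjusted p = 0.00299. The secreted Wnt antagonists Sfrp2 and Sfrp1 were the 2 changed genes of 25 tested Wnt genes. Sfrp2 measured 193, 64.8 and 268 with DEX and 399, 171 and 1322 with vehicle, a log2 fold change of -1.58 ± 0.22, adjusted p = 0.0161, up to 0.0824 without pair 2, and Sfrp1 fell (log2 fold change -0.89 ± 0.14, adjusted p = 0.0274, up to 0.142 without pair 1, 2 or 4). The groups of both overlapped, with replicate 4 highest among the arrays of each treatment. Other large falls, with their log2 fold changes, were the adhesion molecule Epcam (-1.48 ± 0.24, adjusted p = 0.0284, up to 0.16 without pair 2 or 4), the surface sialomucin Cd34 (-1.33 ± 0.24, adjusted p = 0.0357, up to 0.114 without pair 1, 2 or 4 or 6 hrs pair 1, 2 or 4), Evi2a (-1.27 ± 0.15, adjusted p = 0.00728, up to 0.0739 without pair 1, 2 or 4), the adaptor Dok7 (-1.18 ± 0.22, adjusted p = 0.0392, up to 0.203 without pair 1, 2 or 4 or 6 hrs pair 2), the homeobox gene Meox1 (-1.17 ± 0.23, adjusted p = 0.0469, up to 0.173 without pair 1, 2 or 4 or 6 hrs pair 1 or 2) and Tmem26 (-1.16 ± 0.13, adjusted p = 0.00679, up to 0.0545 without pair 1 or 2). The groups of Cd34 and Meox1 overlapped.

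Growth pathways changed in few members. The shares were 9.52% in the IGF axis and 5.56% in BMP and TGF-beta signalling, against 2.74% of all tested genes. In the IGF axis 1 of 21 tested genes rose, the binding protein Igfbp2 (log2 fold change 0.70 ± 0.11, adjusted p = 0.0271, up to 0.145 without pair 1, 2 or 4 or 6 hrs pair 2), and 1 fell, Igfbp5 (-0.72 ± 0.12, adjusted p = 0.0282, up to 0.148 without pair 1, 2 or 4 or 6 hrs pair 1 or 2). Igfbp2 measured 518, 128 and 621 with DEX and 324, 73.9 and 398 with vehicle, with replicate 2 far below the others in both groups. In BMP and TGF-beta signalling 1 of 36 rose, the activin inhibitor Fstl3 (log2 fold change 0.74 ± 0.12, adjusted p = 0.0273, up to 0.126 without pair 1, 2 or 4 or 6 hrs pair 2), and 1 fell, Tgfbi (-0.61 ± 0.12, adjusted p = 0.0475, up to 0.194 without pair 1, 2 or 4 or 6 hrs pair 1, 2 or 4). Of 7 tested FGF receptor genes 0 passed. Deptor, an inhibitor of mTOR that is regulated in muscle wasting, measured 395, 499 and 517 with DEX and 158, 221 and 222 with vehicle, a log2 fold change of 1.24 ± 0.11, adjusted p = 0.00312, and its other 4 probe sets lay between 1.54 and 2.73. Deptor, Klf15 and Klf9 were the 3 changed genes of 17 tested FoxO factors and atrophy genes. Stc1, a secreted glycoprotein induced by hypoxia, fell (log2 fold change -1.15 ± 0.13, adjusted p = 0.00684, up to 0.0631 without pair 1, 2 or 4). Sphk1, which makes sphingosine-1-phosphate, measured 258, 313 and 262 with DEX and 107, 124 and 80.8 with vehicle, a log2 fold change of 1.43 ± 0.12, adjusted p = 0.00299.

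No listed gene of the division machinery passed. Of 29 tested DNA replication genes and of 30 tested mitosis genes 0 passed, against 2.74% of all tested genes. That share leaves few calls in lists of this size. The log2 fold change was above 0 in 4 of the 29 and in 3 of the 30. The medians were -0.15 and -0.15, against -0.03 over all tested genes. The housekeeping list had a median of -0.13, with 0 of 12 passing and 9 of 12 below 0. Its medians in pairs 1, 2 and 4 were -0.16, -0.16 and 0.03. Those of the replication genes were -0.16, -0.05 and -0.17, and those of the mitosis genes -0.16, -0.04 and -0.25. Whether these shifts are related was not tested. Of 23 tested CDK inhibitors and G1 cyclins 2 rose. Cdkn1c, a CDK inhibitor that halts the cycle in differentiating chondrocytes, measured 3608, 4469.6 and 4734 with DEX and 1757, 2473 and 2427 with vehicle, a log2 fold change of 0.95 ± 0.11, adjusted p = 0.00689, up to 0.0661 without pair 1 or 4, and its groups were apart. The cyclin Ccnd3 rose (log2 fold change 0.60 ± 0.10, adjusted p = 0.0324, up to 0.147 without pair 1, 2 or 4 or 6 hrs pair 1 or 2). A second probe set of Ccnd3 gave -0.12 ± 0.43. The proapoptotic Pmaip1 (NOXA) rose (log2 fold change 1.00 ± 0.18, adjusted p = 0.0338, up to 0.177 without pair 1, 2 or 4 or 6 hrs pair 2), the 1 changed gene of 23 tested apoptosis regulators.

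Several metabolic lists held 0 or 1 change, close to the share of 2.74% over all tested genes. Cholesterol synthesis and uptake had 0 of 21 tested genes past the threshold and glucose metabolism Pdk4 of 29 (3.45%). Amino acid metabolism and transport had Glul of 30 (3.33%), and fatty acid and lipid metabolism Fabp4 of 31 (3.23%). Antioxidant enzymes counted 2 of 28, the extracellular glutathione peroxidase Gpx3, which rose (log2 fold change 1.62 ± 0.20, adjusted p = 0.0113, up to 0.0868 without pair 2 or 4), and Gclc, the first enzyme of glutathione synthesis, which rose (log2 fold change 1.15 ± 0.18, adjusted p = 0.0271, up to 0.146 without pair 2 or 4). Gpx3 measured 369, 781 and 488 with DEX and 184, 219 and 120.4 with vehicle, and its groups were apart, with replicate 2 highest in both. Among zinc genes the transporter Slc39a10 fell (log2 fold change -0.87 ± 0.14, adjusted p = 0.0271, up to 0.122 without pair 1, 2 or 4 or 6 hrs pair 2), opposite to Slc39a8. Slc10a6, a carrier of sulfated steroids, measured 231, 285 and 212 with DEX and 72.0, 84.3 and 98.3 with vehicle, a log2 fold change of 1.51 ± 0.17, adjusted p = 0.00728, up to 0.0764 without pair 1 or 2. It stood with Fkbp5 and Sult1a1 as the 3 changed genes of 16 tested for the receptor and steroid handling. The receptor gene Nr3c1 itself measured 388, 391 and 370.5 with DEX and 568, 483 and 435 with vehicle, a log2 fold change of -0.36 ± 0.12 with an adjusted p of 0.184. All DEX arrays were below all vehicle arrays, but groups without overlap were seen in 19.9% of all tested genes. All 4 Nr3c1 probe sets had a log2 fold change below 0, on the same arrays, and none of them passed.

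**Figure D5:**
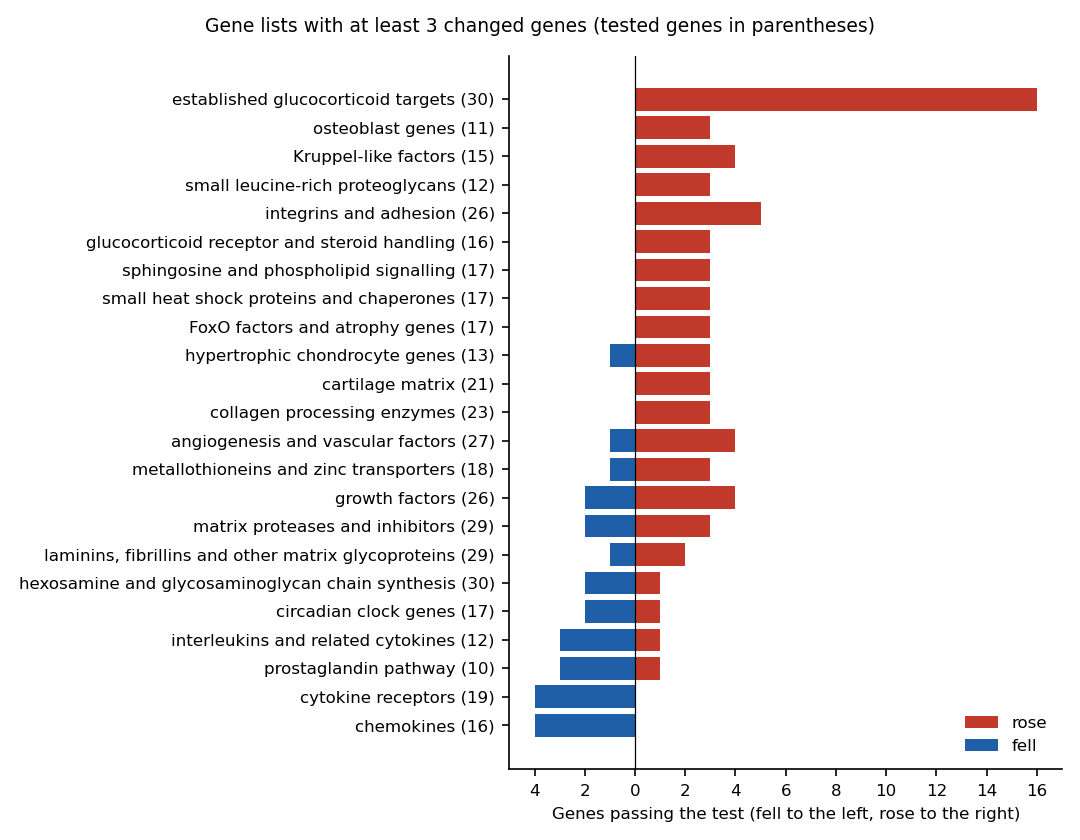
Number of genes that rose (red, to the right) and fell (blue, to the left) with DEX at 24 hrs in 23 gene lists with at least 10 tested and at least 3 changed genes. The number of tested genes stands in parentheses, and some genes belong to more than 1 list. The list of established glucocorticoid targets has 16 rises, and the chemokine and cytokine receptor lists have 4 falls each and 0 rises.

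Other lists held up to 4 changed genes, and the share over all tested genes was 2.74%. Of 15 tested Krüppel-like factors 4 rose, Klf15, Klf9, Klf2 (log2 fold change 0.99 ± 0.13, adjusted p = 0.0135, up to 0.0959 without pair 1, 2 or 4) and Klf7 (0.67 ± 0.11, adjusted p = 0.0323, up to 0.17 without pair 1, 2 or 4 or 6 hrs pair 1), and Klf2 was the 1 changed gene of 20 tested immediate early genes. Of 22 tested MAP kinase phosphatases and feedback genes 2 rose, Dusp1 and the kinase Map3k6 (log2 fold change 0.89 ± 0.13, adjusted p = 0.0201, up to 0.102 without pair 1, 2 or 4). Of 29 tested laminins, fibrillins and other matrix glycoproteins 2 rose, Mfap5 and tenascin-N (Tnn, log2 fold change 0.96 ± 0.18, adjusted p = 0.0446, up to 0.195 without pair 1, 2 or 4 or 6 hrs pair 1 or 2), and 1 fell, fibulin-1 (Fbln1, -0.70 ± 0.13, adjusted p = 0.0383, up to 0.194 without pair 1, 2 or 4 or 6 hrs pair 2). Of 17 tested sphingosine and phospholipid signalling genes 3 rose, Sphk1, the lysophosphatidic acid receptor Lpar4 (log2 fold change 0.61 ± 0.11, adjusted p = 0.0377, up to 0.176 without pair 1, 2 or 4 or 6 hrs pair 1 or 2) and the lipid phosphatase Plpp1 (0.63 ± 0.11, adjusted p = 0.0373, up to 0.19 without pair 1, 2 or 4 or 6 hrs pair 1, 2 or 4). Adhfe1 rose (log2 fold change 1.16 ± 0.20, adjusted p = 0.0348, up to 0.161 without pair 1, 2 or 4 or 6 hrs pair 1 or 2) as the 1 changed gene of 20 tested in aldehyde, alcohol and carbonyl metabolism, and Atf6, a sensor of unfolded proteins, fell (-0.58 ± 0.11, adjusted p = 0.049, up to 0.224 without pair 1, 2 or 4 or 6 hrs pair 1, 2 or 4) as the 1 of 24 tested in the unfolded protein response. Other probe sets of Atf6 gave 0.29 ± 0.20 and -0.31 ± 0.18, and neither passed.

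The study chose the 7 genes it also assayed by qRT-PCR by functional class or by marked change with DEX, and added marginally changed genes as controls. The choice rested in part on these arrays, so the direction on the arrays is no independent evidence. The study reported significant differences between treatments for Ihh, Timp4, Itgbl1 and Klf15, and no effect of DEX on Nr3c1. On the arrays Klf15, Timp4, Itgbl1 and Cdkn1c rose, and Ihh, Nr3c1 and Itgb1 did not pass.

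Of the changed probe sets 34 carried no single gene symbol in the annotation used and are unnamed here, 15 that rose and 19 that fell. Their number includes the largest fall of all. The probe set 1422317_a_at measured 136, 77.3 and 81.7 with DEX and 1009, 612 and 597 with vehicle, a log2 fold change of -2.91 ± 0.11 with an adjusted p of 7.94e-05. The probe set 1425145_at measured 62.0, 44.4 and 53.7 with DEX and 358, 252 and 224 with vehicle, a log2 fold change of -2.37 ± 0.13 with an adjusted p of 0.000486. The largest rise among the unnamed was 1442025_a_at, which measured 183, 165 and 179 with DEX and 7.43, 13.3 and 14.9 with vehicle, a log2 fold change of 3.94 ± 0.26 with an adjusted p of 0.00105. The groups were apart in these 3 probe sets, and all 3 passed whichever pair was left out.

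Most of the late response had the same direction at 6 hrs, on arrays of their own. Of the 195 genes that rose at 24 hrs 175 moved up at 6 hrs too, by the sign of the log2 fold change, and 63 also passed there. Of the 104 genes that fell 90 moved down at 6 hrs and 22 passed. None passed in the opposite direction at 6 hrs. Over all tested probe sets 189 of 20281 passed at 6 hrs. The share of all tested genes with the same direction at both times was not counted. Both contrasts share 1 estimate of spread for each probe set, so calls at 24 and 6 hrs are not independent. The log2 fold change of Itgbl1 was 2.81 at 24 hrs and 0.91 at 6 hrs, that of Slc1a6 was 2.28 and 0.20, that of Omd was 2.24 and 0.86, and that of Mt1 was 1.98 and 3.42. The test of the difference between the times, in the same fit, was passed by 1 probe set of the 20281, the unnamed 1422317_a_at, and by 2615 at an unadjusted p under 0.05. At 6 hrs that probe set measured 2016, 1686 and 1053 with DEX and 2311, 2079 and 1397 with vehicle, a log2 fold change of -0.30 ± 0.11. The difference between the times was -2.61 with an adjusted p of 0.00463. No named gene was shown to respond differently at 24 hrs than at 6 hrs.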

How the data were processed

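RNA from the cultures was hybridized to Affymetrix MOE 430 2.0 arrays, with 45101 probe sets each. The authors had the arrays scanned and ran GC-RMA within GeneSpring GX, and linear intensities of all 12 arrays were deposited in 1 table. GCRMA stands in the submitters' processing notes, and which version was used is not given there or in the methods. GC-RMA subtracts background by base content and normalizes between arrays, so low intensities depend on the background model and a shift common to all genes would be removed. The per-array EXP files hold scanner and fluidics records of a kind other than signal, as deposited, and were read only for the hybridization day. An array has no read depth, and the number of arrays limits the precision.

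Log2 intensities, without a pseudocount, were fitted with limma 3.58.1 (lmFit, eBayes) in R 4.3.3 on all 12 arrays, with a term for each of the 6 pairs and a DEX term for each time point, two-sided. The 24 hrs contrast is the mean of its 3 pair differences, and the 6 hrs arrays enter only the shared estimate of spread. Tested were probe sets whose mean reached 50 in either 24 hrs group, and p was adjusted over them by Benjamini and Hochberg with a threshold of 0.05. The pairing comes from the replicate numbers in the sample titles and the shared hybridization day. Each 24 hrs array was centred on its group's mean, and the centred values correlated at 0.154, 0.316 and 0.225 between arrays of like number and at -0.234 to 0.0264 between those of unlike number. Centred arrays of a group sum to 0, so positive values for like numbers push the others below 0. Part of this contrast therefore follows from the centring. Replicates 1 and 4 were hybridized on the same day and replicate 2 on another. The fit was tested on simulated data before use. Alternatives covered the arrays and block in the fit, the filter, the scale, the normalization, the variance model, the methods' t-test and leaving out each array. Scripts used Python 3.11.15, pandas 2.3.3 and matplotlib 3.10.9.

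Symbols came from the platform annotation. Of the probe sets 34958 had 1 symbol, of which 34754 were matched to RefSeq, 932 had several and 9211 had none listed. Promoter windows are RefSeq's, of GRCm38.p6. Members, tests and the 65 gene lists were chosen with earlier results of these data known. Text names the 20 largest rises and 20 largest falls with 1 sign in all 3 pairs, up to 4 changed members of each list, and the 7 genes assayed by qRT-PCR. Other genes are marked.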

Additional observations from a re-analysis of the deposited data

Results flagged for a closer look

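The effect of DEX differed between the time points for 1 probe set of the 20281 tested, 1422317_a_at, which carries no single gene symbol in the annotation used. It fell at 24 hrs with a log2 fold change of -2.91, against -0.30 at 6 hrs, a difference of -2.61 with an adjusted p of 0.00463 in the fit over all 12 arrays. The 24 hrs fall was called in 25 of 26 alternatives, and the methods' t-test after adjustment was the exception.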

How the results depend on the processing

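The direction of every named gene was kept under all alternatives run, with 2 exceptions among genes that did not pass. Itgb1 had a log2 fold change of 0.0513 within the hybridization day that held 4 arrays at 24 hrs, and leaving out 1 array gave -0.129 to 0.0513, above 0 without pair 2. For Acan the range was -0.0301 to 0.118, below 0 without pair 1. For the changed genes most of these outcomes were fixed in advance. They had 1 sign in all 3 pairs, so leaving out a pair could not reverse them. Fits that changed only the block, the filter or the variance model returned the same log2 fold change. The number of changed probe sets depended on the fit. The replicate block stood in the reported fit, with 489 changed, 318 up and 171 down. With no replicate block there were 63 (54 up, 9 down) over all arrays and 173 (135 up, 38 down) over the 24 hrs arrays alone, while the replicate block over the 24 hrs arrays alone gave 335 (227 up, 108 down), 273 of them shared with the reported calls. Hybridization day as a block gave 466 (316 up, 150 down) over all arrays and 327 (237 up, 90 down) over the 24 hrs arrays, and within the day with 4 arrays 105 were called (86 up, 19 down). The other day held 1 pair and gives no test. No filter left 9 (6 up, 3 down), a minimum of 100 gave 716 (446 up, 270 down), 16 added before log2 gave 746 (465 up, 281 down), and an intensity trend gave 772 (490 up, 282 down). Quantile normalization gave 581, median centring 501 and the methods' filter 429. The methods' t-test, Welch's test without pairing, called 0 (0 up, 0 down) after adjustment, with 1687 at an unadjusted p under 0.05 and 373 at the methods' threshold of 0.01. Leaving out any 1 array gave 102 to 424 changed, 72 to 278 up and 29 to 146 down. The lowest counts were without pair 1, 2 or 4 of 24 hrs, at 102, 124 and 126, and without the 6 hrs pairs 1, 2 and 4 the counts were 353, 284 and 424. The cause of these differences was not tested. Signal over background limits genes with 1 group under 50.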

Other observations

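Of the 299 changed genes 52 passed whichever pair of arrays at 24 or 6 hrs was left out, and 18 of them, 16 that rose and 2 that fell, are outside the lists and the rule for named genes. They were picked after their values were seen, and because their calls held, so that this stability is no evidence of its own. Signalling and membrane genes stood among them. Ndrg2, a stress-responsive gene of the NDRG family, measured 379.5, 363 and 429.9 with DEX and 101, 105 and 97.8 with vehicle, a log2 fold change of 1.94 ± 0.12, adjusted p = 0.000818. Cd200, a surface glycoprotein that restrains myeloid cells, measured 361, 400.2 and 539 with DEX and 125, 112 and 92.4 with vehicle, a log2 fold change of 1.97 ± 0.20, adjusted p = 0.00474. Crispld2, a secreted protein that is a glucocorticoid target in airway smooth muscle, measured 369.9, 401 and 320.0 with DEX and 120.4, 136 and 65.6 with vehicle, a log2 fold change of 1.82 ± 0.19, adjusted p = 0.0056. In these genes every DEX array was above every vehicle array.

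Pik3r1, the regulatory subunit of PI3 kinase, had a log2 fold change of 1.27 ± 0.12, adjusted p = 0.0043, and the kinase anchor Akap12 of 1.35 ± 0.11, adjusted p = 0.00234. The sodium pump subunit Atp1b1 gave 1.40 ± 0.13, adjusted p = 0.00315, the electron carrier ferredoxin Fdx1, which serves steroid synthesis in mitochondria, 1.47 ± 0.15, adjusted p = 0.00563, the iron reductase Cybrd1 1.13 ± 0.10, adjusted p = 0.00315, and the haemoglobin-binding plasma protein haptoglobin (Hp) 1.43 ± 0.16, adjusted p = 0.00689, all as log2 fold changes. The other rises were Krt7, Serinc5, Shisa3, Pcdh20, Mettl7a1, Jade2 and Pla1a, with log2 fold changes between 1.15 and 1.55. The falls were the aryl hydrocarbon receptor Ahr, which measured 79.6, 48.4 and 48.9 with DEX and 147, 96.0 and 124 with vehicle, a log2 fold change of -1.07 ± 0.12, adjusted p = 0.00728, and the single-strand DNA binding protein Nabp1, with a log2 fold change of -1.05 ± 0.11, adjusted p = 0.00563.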
